A study of Mus musculus with 4 samples.

Results

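The pigment gene loci are 5 windows of the mouse genome, in the GRCm39 build, around the genes Tyr (chr7:87050000-87200000), Tyrp1 (chr4:80700000-80800000), Dct (chr14:118220000-118340000), Pmel (chr10:128520000-128580000) and Mlana (chr19:29650000-29720000). Accessible chromatin in them was read from 4 ATAC-seq libraries of B16-F10 cells, a pigmented mouse melanoma line; the assay uses Tn5, a transposase that cuts accessible DNA and tags it with adapters. The labels name 2 wild-type libraries and 2 knockout libraries. In the knockout cells Ssbp4, which encodes a member of the family of single-stranded DNA-binding proteins that partner with LDB1, was deleted by electroporated Cas9 and a mixture of guides, and the control guide of the protocol targets an intergenic site of chromosome 2. The labels do not say whether the wild-type libraries received that guide, whether the knockout cells are a clone or a pool, or whether the replicates are separate cultures, so the spread between replicates may be technical. Calls over Ssbp4 were not analysed here, so the knockout was not checked. All calls that overlapped a window were taken, and overlapping calls (by at least 1 bp) were joined across the 4 libraries into regions. There were 62 such regions, of 72251 on the standard chromosomes: 10 in the Tyr window, 13 in the Tyrp1 window, 18 in the Dct window, 12 in the Pmel window and 9 in the Mlana window.

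Melanocytes make melanin in melanosomes, organelles related to lysosomes. Tyrosinase, the product of Tyr, catalyses the first and rate-limiting steps from tyrosine, and Tyrp1 and Dct (dopachrome tautomerase) encode related enzymes that act later in the synthesis of eumelanin. Pmel encodes the protein that forms the amyloid fibrils on which melanin is laid down, and Mlana encodes a small membrane protein of melanosomes that is widely used as a marker of melanocytes and melanoma. The 5 genes are classical targets of MITF, the master transcription factor of the lineage, which binds E-boxes of the form CATGTG and, with flanking bases, the M-box; SOX10 acts with it at many of these loci. Mouse Tyr is also known for a distal regulatory element upstream of its promoter.

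The promoters were searched for CATGTG, the E-box form named above. RefSeq sequences of the 250 bases before the transcription start (build GRCm38.p6) were matched for 3 of the 5 genes, Tyr, Tyrp1 and Dct, and are shown 5′ to 3′ along the gene with its matches, on either strand, in capitals.
Tyr (chr7:87493513-87493762, minus strand): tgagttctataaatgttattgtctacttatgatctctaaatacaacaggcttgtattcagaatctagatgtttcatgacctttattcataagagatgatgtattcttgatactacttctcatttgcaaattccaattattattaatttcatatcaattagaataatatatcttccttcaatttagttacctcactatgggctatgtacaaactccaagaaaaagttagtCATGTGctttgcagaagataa
Tyrp1 (chr4:80833963-80834212, plus strand): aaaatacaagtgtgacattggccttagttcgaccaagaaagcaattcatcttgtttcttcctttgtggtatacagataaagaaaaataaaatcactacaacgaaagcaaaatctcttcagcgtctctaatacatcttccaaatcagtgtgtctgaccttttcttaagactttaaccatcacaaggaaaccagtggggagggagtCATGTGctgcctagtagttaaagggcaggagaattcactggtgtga
Dct (chr14:118052247-118052496, minus strand): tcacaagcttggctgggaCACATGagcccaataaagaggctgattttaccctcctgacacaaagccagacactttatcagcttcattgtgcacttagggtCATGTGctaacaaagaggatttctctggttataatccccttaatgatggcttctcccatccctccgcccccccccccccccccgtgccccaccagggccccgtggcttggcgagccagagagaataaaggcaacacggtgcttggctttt
All 3 held CATGTG on the strand of the gene, 21 to 16 bases before the start in Tyr, 46 to 41 in Tyrp1 and 150 to 145 in Dct, and Dct held it once more on the other strand, 232 to 227 bases before the start. Among the 32851 promoters of that table, 12.3% held CATGTG on either strand and 3.25% held TCATGTG, which contains it and which all 3 genes held. The longer AGTCATGTGCT was searched on both strands after the sequences had been seen. It is the stretch around CATGTG that the Tyr and Tyrp1 promoters share, so its presence in both was fixed by that choice. It was found in 7 of the 32851 promoters (0.0213%), Tyr and Tyrp1 included, and not in Dct. The Dct promoter reads GGTCATGTGCT at its CATGTG on the strand of the gene, which differs from the longer stretch in the first base only. CACGTG, which is its own reverse complement and was present in 6.02% of the promoters, was not among the letters of these 3 windows. These positions belong to another build than the calls, so no region below is assigned to a promoter.

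The wild-type lists held 59215 and 63080 calls on the standard chromosomes and the knockout lists 50068 and 57698. Each call carries the fold of its summit over the local background, and a percentile that gives its place within its own list by the −log10 p-value (100 is the strongest). The knockout libraries had lower folds throughout: of the 44000 regions called in all 4 libraries, 84.1% had a lower deposited fold in both knockout than in both wild-type libraries and 1.13% a higher one. The percentile also depends on how many weak calls a list holds. The median change of the shared regions, knockout mean minus wild-type mean, was −2.12 points, and 40.2% of shared regions ranked lower and 11.2% higher in both knockout than in both wild-type libraries. A percentile among the shared regions alone, whose median change was 0.41 points, was used beside it; by that measure 26.7% were lower and 32.2% higher. With 2 libraries against 2, an exact permutation test cannot go below p = 0.33, so no test was made, and each region is set beside these shares. In single regions, the replicates lay a median of 1.90 percentile points apart in wild type (at most 10.2) and 3.57 in the knockout (at most 22.5), over the 43 shared regions of the windows. An ATAC-seq list cannot tell fewer cells with an open site from less opening per cell.

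The windows were densely accessible in both genotypes. They held 12.4 regions per 100 kb, with 17.6% of their bases inside a region, against 2.72 regions per 100 kb and 2.71% of bases over the standard chromosomes. In the 500 kb on either side there were 0.6 regions per 100 kb around Tyr, 1.2 around Tyrp1, 2.1 around Dct, 7.1 around Pmel and 4.1 around Mlana, against 6.67, 13, 15, 20 and 12.9 inside the windows. Pmel lies among other genes: in the RefSeq annotation its span overlaps those of Rab5b, Cdk2 (a cell cycle kinase) and Dgka, so the regions of its window cannot be given to Pmel alone. The nearest protein-coding neighbours are Nox4 and Grm5 for Tyr, Ptprd and Lurap1l for Tyrp1, and Gpc6 and Tgds for Dct. For Mlana, Ermp1 is one of them.

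Of the 62 regions, 43 were called in all 4 libraries, where 60.9% of all regions were. The Dct window stood at one end, with all 18 of its regions called in every library, and the Tyr window at the other, with 4 of 10. In the Tyrp1 window 9 of 13 were shared, in the Pmel window 7 of 12 and in the Mlana window 5 of 9. Lost regions, called in both wild-type and neither knockout library, numbered 5 (2 near Tyr, 1 near Tyrp1 and 2 near Pmel), beside 7.09% of all regions. Gained regions, called only in both knockout libraries, numbered 2 (near Tyrp1 and Pmel), beside 1.52% of all regions. Without knockout replicate 2 there were 9 lost regions (background 14.7%), and without wild-type replicate 1 there were 4 gained regions (background 2.37%). With a library left out fewer libraries must agree, and the backgrounds rose too, so these counts cannot show dependence on a single library. All 19 regions that were not shared lay below the median of every list that held them, the highest at the 38.0th percentile. In each window the strongest regions were thus open in all 4 libraries, and the regions seen in some libraries only were weak. The same count was not made over all regions of the lists, so this is not shown to be particular to the windows.

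**Figure D1:**
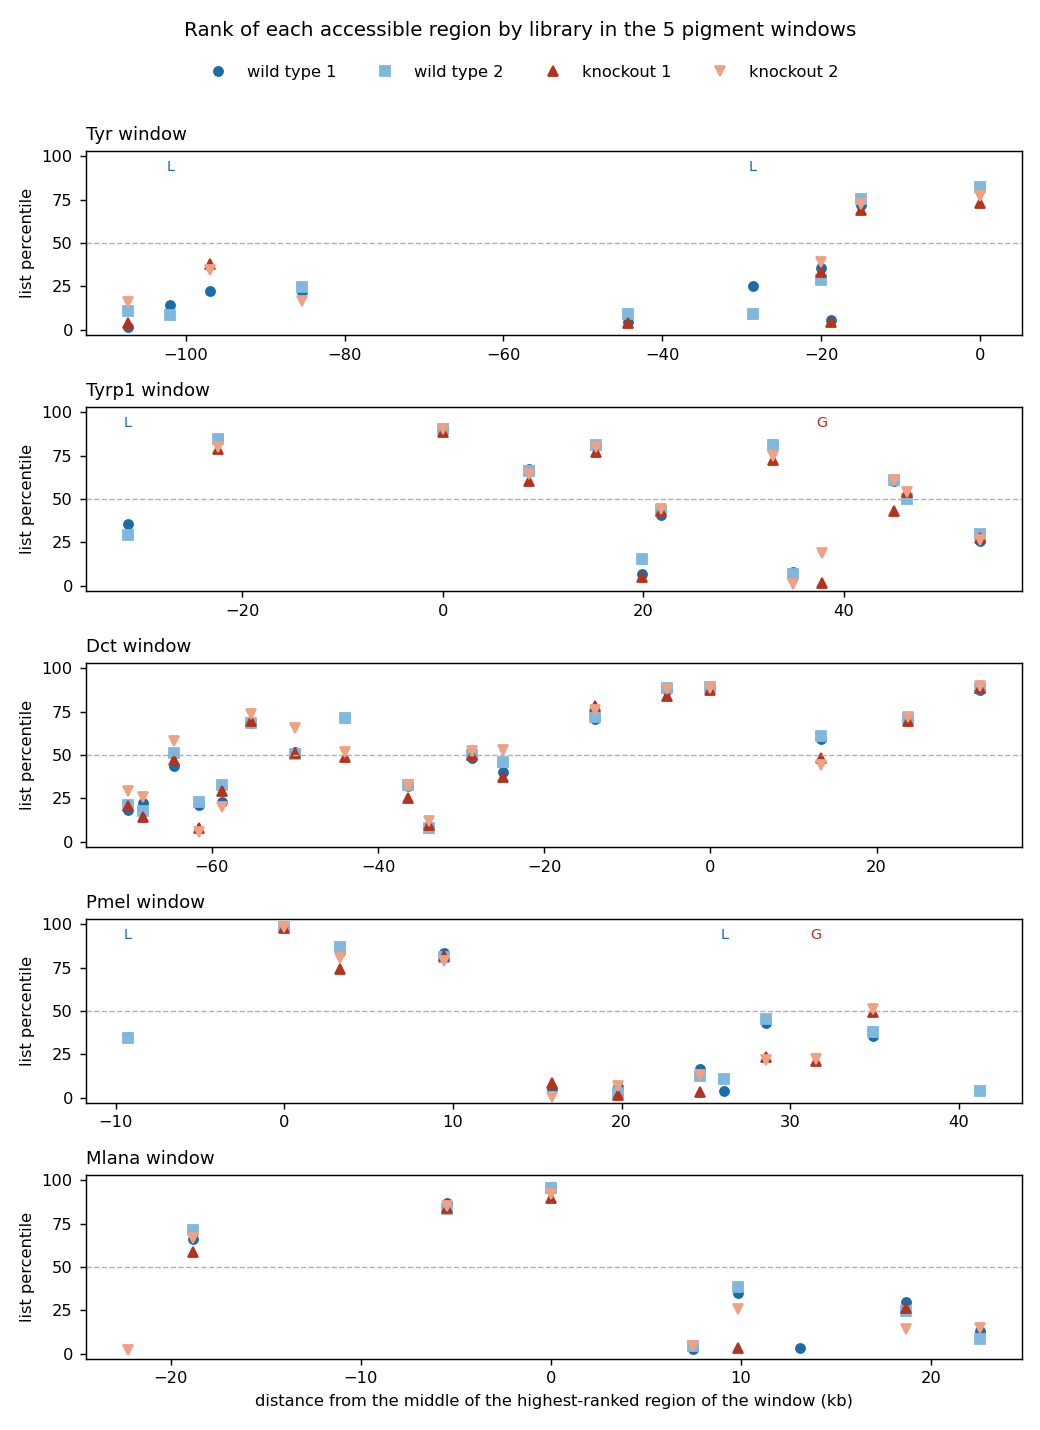
List percentile of every region (vertical axis) against its distance in kb from the highest-ranked region of the window (horizontal axis), with 1 symbol per library; L marks the 5 lost and G the 2 gained regions, and the dashed line is the median of a list. Regions above the dashed line carry symbols of all 4 libraries, and the 19 regions without a call in some library lie below it.

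In the Tyr window, accessibility was concentrated in a pair of regions that both genotypes shared. The region chr7:87157114-87158128 was the strongest, with folds of 14.7 and 16.4 in wild-type replicates 1 and 2 and 10.4 and 12.3 in knockout replicates 1 and 2. Its percentiles were 81.0, 82.3, 73.1 and 77.1 in the same order, so both knockout libraries were below both wild-type libraries. The change of −6.56 points exceeded the replicate gaps, and 25.6% of shared regions had a change at least as negative. It was also lower by the percentile among shared regions (74.5 and 74.8 against 69.4 and 70.1). Its deposited fold, set against the median of the shared regions of each library, was higher in both knockout libraries, by 0.04 on the log2 scale. That is less than the median change of all shared regions by the same measure, 0.13, and 37.2% had a change as low or lower. Its summit pileup (the reads stacked over the summit), set against the median in the same way, was lower in both knockout libraries. That change was −0.37 on the log2 scale, and 8.8% of shared regions had a change at least as negative.

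The neighbour of this region, chr7:87141668-87143738, lay 13375 bp away. It had folds of 7.12 and 8.91 in wild type against 6.20 and 7.21 in the knockout, and percentiles of 72.2, 75.5, 69.2 and 72.8. The genotypes overlapped in rank there. The smaller region chr7:87137308-87138007 began at the same base in all 4 libraries, as 0.489% of the shared regions did, and had folds of 3.33 and 3.20 in wild type against 3.07 and 3.45 in the knockout. Its list percentiles overlapped between the genotypes (35.4, 28.8, 33.6 and 39.0), while among shared regions it ranked higher in the knockout (25.2 and 23.0 against 19.6 and 11.9).

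The other 7 regions of the Tyr window were weak. The only shared one, chr7:87049872-87050859, crosses the edge of the window, and its ranks of 1.65, 10.6, 3.74 and 15.9 differed more between replicates than between genotypes. The lost regions were chr7:87054930-87056454, with wild-type folds of 3.19 and 2.81, and chr7:87128668-87129412, with 4.08 and 2.85. Their wild-type percentiles lay between 8.69 and 25.3, in the lower part of the lists, and those of the latter were 16.2 points apart. The region chr7:87060245-87061073 was missing in wild-type replicate 2 only, with folds of 3.83 in wild-type replicate 1 and 4.18 and 3.96 in the knockout. Knockout replicate 1 lacked chr7:87071417-87073002 and knockout replicate 2 lacked chr7:87113075-87113664. The region chr7:87138435-87139287 was called in replicate 1 of each genotype.

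The Tyrp1 window held a row of strong regions. The highest-ranked, chr4:80737581-80738531, had folds of 15.1 and 16 in wild type against 12.5 and 14.6 in the knockout, and percentiles of 90.9, 90.6, 88.9 and 90.1. Its 4 summits lay within 3 bp and its 4 starts within 1 bp, as the starts of 0.68% of shared regions did. The change of −1.22 points was less negative than that of the median shared region, and among shared regions its ranks overlapped (87.7 and 86.5 against 87.4 and 87.1). The list percentiles of this region were thus lower in both knockout libraries, while its percentiles among shared regions did not separate the genotypes.

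Further regions around Tyrp1 differed more. At chr4:80770298-80771728 the folds were 6.98 and 7.61 in wild type against 5.02 and 5.61 in the knockout, and the percentiles 81.8, 81.4, 72.3 and 74.8. The change of −8.02 points was the most negative of the 5 regions of this window that ranked lower in both knockout libraries. At chr4:80715205-80716173 the folds were 14.3 and 15.7 against 10.7 and 12.3, with percentiles of 84.4, 84.9, 78.7 and 79.9. These 2 regions were lower in both knockout libraries among shared regions as well. For chr4:80746191-80747222 (folds 9.38, 10.0, 6.22 and 7.63) and for the broad region chr4:80751796-80754899 (folds 6.63, 7.25, 5.90 and 7.12) the lower list rank did not hold there: the ranks of the former overlapped, and the latter was higher by 0.69 points.

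Other regions around Tyrp1 ranked higher without Ssbp4. At chr4:80783910-80784760 all 4 summits fell on the same base, and the percentiles were 51.8 and 49.8 in wild type against 53.9 and 53.8 in the knockout, although the folds were lower (6.58 and 6.37 against 5.94 and 5.77). At chr4:80759106-80760611 the percentiles were 40.9 and 43.0 in wild type against 43.2 and 44.0 in the knockout. Only 535 bp from the first of these, chr4:80782769-80783374 had folds of 8.11 and 8.25 in wild type, 4.38 in knockout replicate 1 and 6.53 in knockout replicate 2. Its knockout percentiles of 43.0 and 61.2 fell on both sides of the wild-type values of 60.6 and 61.1, so knockout replicate 1 alone accounts for its change of −8.72 points. The weaker region chr4:80791202-80792045 overlapped between the genotypes.

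Both call patterns occurred around Tyrp1. The lost region chr4:80706107-80707273 had wild-type folds of 5.10 and 4.58 and percentiles of 35.7 and 29.1. The gained region chr4:80775324-80776479 had knockout folds of 1.52 and 1.96 and percentiles of 1.5 and 19, so in knockout replicate 1 it was one of the weakest calls of the list. The weak regions chr4:80757584-80758269 and chr4:80772474-80773479 were each missing in 1 knockout library, replicate 2 and replicate 1.

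The regions of the Dct window covered 30.9% of the bases, with a median length of 1834.5 bp among the shared regions against 1178 bp over all shared regions. The folds were low, with a median of 2.70 and 2.95 in wild type against 7.45 and 8.28 over all shared regions, while the local background under the regions was high. That background was solved for each call from its fold and p-value, and is given as a multiple of the genome-wide background of the library (pileups of 14.7 and 15.1 in wild type against 17.2 and 17.4 in the knockout). Between chr14:118225720 and chr14:118295762, a stretch of 70.0 kb with 14 regions, the multiples reached 21.8 and 20.8 in wild type against 17.9 and 17.2 in the knockout, at chr14:118234943-118236543. One region inside the stretch, chr14:118268812-118270285, dipped to 4.34 and 4.37 in the knockout. Of the 18 regions, 13 had at least 5 times the genome-wide background in all 4 libraries. Among all shared regions 10.9% did, and 0 of the 9 shared regions in the flanks of Dct.

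The high background ended between neighbouring regions. At chr14:118293270-118295762 the multiples were 14.2, 14.4, 10.6 and 11.2, and at the next region, 11544 bp on, they were 1.00 in all 4 libraries. In the Pmel window 3 of 7 shared regions passed the same level, in the Mlana window 1 of 5, and in the Tyr and Tyrp1 windows 0 of 4 and 0 of 9. The multiple was lower in both knockout libraries for 14 of the 18 Dct regions and for 36 of the 43 shared regions of the windows, beside 61.7% of all shared regions. It was higher in both for 1 Dct region and for 2 of the 43, beside 9.31%.

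**Figure D2:**
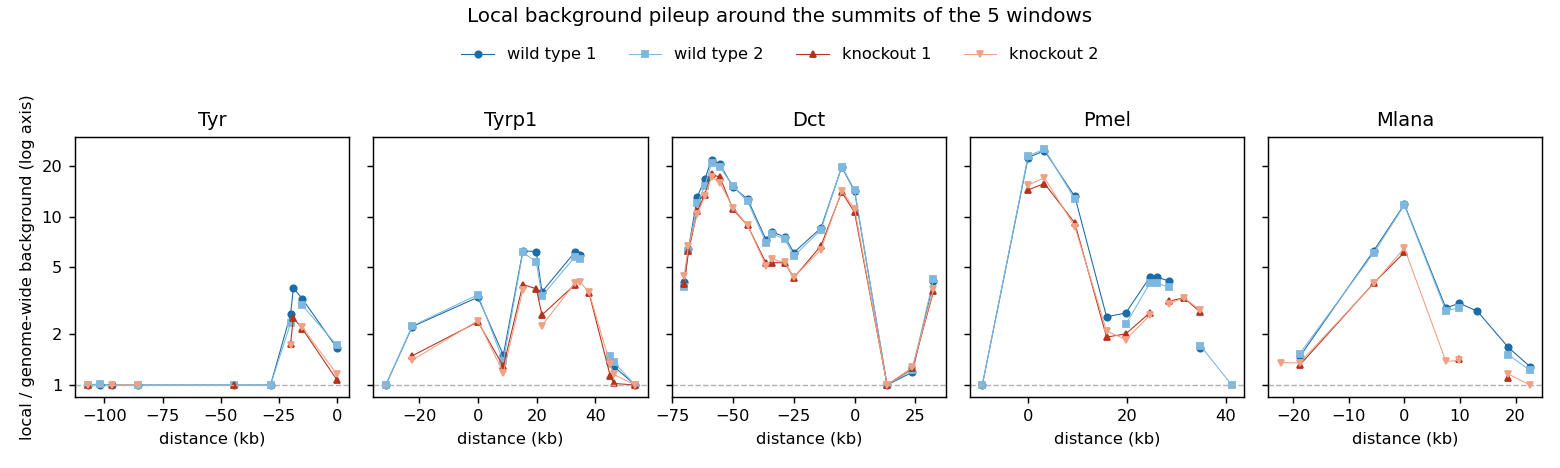
Local background of each region divided by the genome-wide background of its library (vertical log axis; the dashed line at 1 is the genome-wide level) against the distance in kb from the highest-ranked region of the window, 1 line per library. In the Dct panel all values from the left edge to the highest-ranked region lie between 3.82 and 21.8, and the next region is at 1.00 in every library; the Pmel panel reaches 25.2 and the Mlana panel 11.8.

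The strongest regions of the Dct window differed little in rank. At chr14:118293270-118295762 the summits of all 4 libraries fell on the same base, the folds were 5.97 and 6.38 in wild type against 5.08 and 5.54 in the knockout, and the percentiles were 89.3, 89.3, 87.4 and 88.4. At chr14:118288025-118290439 the folds were 4.68, 5.29, 3.99 and 4.79, and the ranks of the genotypes overlapped. At chr14:118326098-118327799 the folds were 11.2 and 12.5 against 9.55 and 11, and the list percentiles overlapped (87.5, 88.5, 88.4 and 89.8). Among shared regions it ranked higher in both knockout libraries (86.8 and 86.7 against 83.2 and 83.5).

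Against this, single regions of the Dct window ranked lower without Ssbp4. The largest change was at chr14:118248515-118252560, where the folds were 3.56 and 3.8 in wild type against 2.22 and 2.36 in the knockout. Its summit pileups, not scaled for depth, were 667 and 711 in wild type against 340 and 367 in the knockout. Relative to the median pileup of the shared regions of each library, the change was −0.50 on the log2 scale. The summits of the libraries lay within 53 bp. The percentiles were 71.4 and 71.6 in wild type against 48.7 and 51.5 in the knockout, a change of −21.3 points that 2.39% of shared regions reached or passed. A separate site, chr14:118307307-118308417, had folds of 9.25 and 10.3 in wild type against 5.23 and 4.88 in the knockout. Its percentiles were 59.4, 61.1, 48.2 and 44.2, and the local background there was at the genome-wide level in every library. At both sites the genotypes were further apart than the replicates of either.

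The weak region chr14:118232374-118233483 also ranked lower, with percentiles of 21.0 and 22.9 in wild type against 7.75 and 5.61 in the knockout and folds of 1.58, 1.67, 1.34 and 1.31. Divided by the median shared fold of each library, its fold came out higher in both knockout libraries, by 0.21 on the log2 scale. Those medians were 7.45 and 8.28 for the wild-type libraries and 5.12 and 6.01 for the knockout libraries. Folds as low as those of this region have little room to fall by a like ratio. The higher relative fold therefore cannot show a gain here, and the deposited fold was lower in both knockout libraries. At chr14:118257090-118259109 the percentiles were 32.4, 32.9, 25.3 and 32.0, a small difference beside the knockout gap.

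Further Dct regions stood higher in the knockout. At chr14:118279242-118282126 the folds were 4.22 and 4.57 in wild type against 4.63 and 4.62 in the knockout, the only shared region of the 5 windows with a higher deposited fold in both knockout libraries. Its percentiles were 71.0, 71.8, 78.0 and 75.9, although the libraries placed the summit at sites up to 798 bp apart. At chr14:118237527-118240805 the percentiles were 68.3, 68.7, 69.8 and 73.6. The regions chr14:118259601-118261567 and chr14:118264556-118267130 also ranked higher in both knockout libraries, by 2.85 and 2.20 points. Among shared regions, 10 of the 18 Dct regions ranked higher in both knockout libraries (background 32.2%) and 3 lower (background 26.7%). Chromosome 14 as a whole stood the same way, with 684 of 1351 shared regions higher and 229 lower. Its median change was 2.45 points against 2.31 in the Dct window, so the window did not stand apart from its chromosome in the median.

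The remaining Dct regions overlapped between genotypes in list rank. At chr14:118243908-118245191 the 4 summits lay within 3 bp, and the folds were 2.32 and 2.34 in wild type against 2.15 and 2.79 in the knockout. The list percentiles were 51.8, 50.7, 51.2 and 65.6, so by that measure knockout replicate 2 alone stood out. Among shared regions this region ranked higher in both knockout libraries (44.6 and 55.2 against 36.8 and 32.2), a change of 15.4 points. Its relative fold and relative pileup were higher in both as well. At chr14:118317745-118318852 the folds were 11.6, 13.0, 8.33 and 9.53 and the percentiles 69.7, 71.6, 69.5 and 72.1. The regions starting at 118223904, 118225720, 118227900, 118234943 and 118268812 of chromosome 14 had folds between 1.43 and 3.12. Among shared regions those starting at 118223904, 118227900, 118268812 and 118317745 ranked higher in both knockout libraries, by 5.80, 12.5, 8.71 and 4.89 points. Those starting at 118225720 and 118234943 overlapped by that measure as well.

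The Pmel window held the strongest region of the 5 loci. At chr10:128531623-128533019 the folds were 8.15 and 8.80 in wild type against 7.44 and 8.92 in the knockout, over local backgrounds of 22.4, 22.9, 14.4 and 15.4 times the genome-wide level. Its percentiles were 98.5, 98.5, 97.8 and 98.7, which overlapped. The broad region chr10:128540395-128543183, with folds of 4.95, 4.99, 4.46 and 4.35, overlapped in rank as well (83.3, 81.3, 81.6 and 78.7). Between them, chr10:128535169-128536116 had its summit on the same base in all 4 libraries, with folds of 3.81 and 4.33 in wild type against 2.88 and 3.45 in the knockout. Its percentiles of 84.3 and 86.7 in wild type against 74.3 and 80.8 in the knockout did not overlap.

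At the other end of the Pmel window, neighbouring regions differed in opposite directions. At chr10:128560426-128561371 the summit pileups were 196 and 209 in wild type against 118 and 114 in the knockout, and the folds 3.18 and 3.57 against 2.16 and 2.13. Relative to the median pileup of the shared regions, this region changed by −0.34 on the log2 scale. Its percentiles were 43.0, 45.3, 23.6 and 21.8, a change of −21.4 points that 2.36% of shared regions reached or passed. The region to its left, chr10:128558080-128558754, was lost, with wild-type folds of 1.66 and 1.96. The region to its right, chr10:128563202-128564499, was gained, with knockout folds of 2.06 and 2.10.

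The next shared region, chr10:128566506-128567921, stood the other way. Its summit pileups were 102 and 117 in wild type against 163 and 178 in the knockout, and the 4 summits lay within 4 bp. The percentiles were 35.5 and 38.1 in wild type against 49.4 and 51.1 in the knockout, a change of 13.4 points, at the 98.6th percentile of all shared regions. The deposited fold was nevertheless lower in the knockout (4.06 and 4.37 against 3.45 and 3.61), since the local background was higher there, at 2.71 and 2.79 times the genome-wide level against 1.66 and 1.72. The pileup relative to the median of the shared regions was higher by 1.10 on the log2 scale, at the 99.6th percentile. The lower and the higher region lay on either side of the gained region.

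The weak regions chr10:128551422-128552816 and chr10:128556472-128557462 had folds between 1.66 and 2.06 and overlapped in list rank. The other lost region, chr10:128522673-128523415, had wild-type folds of 5.04 and 5.14 at percentiles of 35.1 and 34.3. Wild-type replicate 2 lacked chr10:128547942-128548500, and it alone had chr10:128573421-128573733, with a fold of 2.42.

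The Mlana window had 3 strong regions. At chr19:29679702-29681509 the folds were 9.60 and 10.1 in wild type against 7.56 and 8.73 in the knockout, and the summit pileups 1676 and 1804 against 802 and 999. Relative to the median pileup of the shared regions, this region changed by −0.50 on the log2 scale, which 5.13% of shared regions reached or passed. Its percentiles were 96.3, 95.8, 90.0 and 91.8, which did not overlap, and among shared regions it was lower too (95.1 and 94 against 88.6 and 89.3). Of the shared regions, 31.8% had a list change at least as negative as its −5.13 points. The local background was lower as well, at 11.8 and 11.7 times the genome-wide level in wild type against 6.13 and 6.51 in the knockout. That fall was reached or passed by 0.345% of shared regions. Relative to the median shared fold of each library, however, the fold of this region was higher in both knockout libraries, by 0.22 on the log2 scale. The median change of all shared regions by that measure was 0.13. At chr19:29674599-29675650, 4051 bp away, the folds were 8.45, 8.08, 7.38 and 8.40 and the ranks overlapped (86.7, 83.6, 83.7 and 85.0). At chr19:29661116-29662411 the folds were 9.19, 11.4, 5.93 and 7.65, and the percentiles overlapped (66.3, 71.6, 58.9 and 66.7).

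The most negative change of all 43 shared regions was in the Mlana window, at chr19:29689261-29691687. The folds were 3.11 and 3.52 in wild type, 1.91 in knockout replicate 1 and 2.95 in knockout replicate 2, and the pileups 142, 156, 48 and 74. Relative to the median pileup of the shared regions, the change was −0.86 on the log2 scale, which 0.84% of shared regions reached or passed. The percentiles were 34.8, 38.5, 3.41 and 25.9. Both knockout libraries were below wild type, but they differed by 22.5 points from each other, as much as the change of −22.0 points, and knockout replicate 1 had its summit 403 bp from the others. The local background was 3.06 and 2.88 times the genome-wide level in wild type against 1.44 and 1.40 in the knockout. A fall as large or larger was seen in 0.066% of shared regions. At chr19:29698496-29700124 the folds were 3.6, 3.51, 3.23 and 2.49 and the ranks overlapped.

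The Mlana window had no lost or gained region. Knockout replicate 1 lacked chr19:29687618-29688557 and chr19:29702564-29703830, knockout replicate 2 alone had chr19:29658103-29658599, and wild-type replicate 1 alone had chr19:29693505-29693986. Their folds lay between 1.74 and 2.82. None of the 5 shared Mlana regions ranked higher in both knockout libraries by either percentile, beside 11.2% of all shared regions in the full lists and 32.2% among shared regions. On chromosome 19 these were 88 and 306 of 1197, so with 5 regions a count of none does not set the window apart. The median change among shared regions was −2.31 points, against −0.26 on chromosome 19 as a whole and −0.94 over the 26 shared regions of the flanks.

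Over the 5 windows, 15 of the 43 shared regions ranked lower in both knockout libraries in the full lists (background 40.2%) and 7 higher (background 11.2%). The median change was −1.42 points, against −2.12 over all shared regions. Among shared regions 11 were lower and 15 higher, beside 26.7% and 32.2%, and the median change was 0.42 points, against 0.41. The deposited fold was lower in both knockout libraries for 27 regions (10 of the 18 near Dct), beside 84.1% of all shared regions. Relative to the median shared region of each library, the fold was lower in both knockout libraries for 3 regions (background 18.3%) and higher for 33 (background 51.9%), and the pileup was lower for 11 (background 21.9%) and higher for 14 (background 44.6%). With a library left out, 27 regions were lower without knockout replicate 2 (background 72.4%). Higher regions numbered 14 without wild-type replicate 2 (background 21.5%) and 21 without knockout replicate 1 (background 33.6%). Fewer libraries must agree in these settings, and the backgrounds rose too, so the larger counts cannot show dependence on a single library.

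Measured 4 ways (list percentile, percentile among shared regions, relative fold and relative pileup), 3 regions were lower in both knockout libraries each time: chr14:118248515-118252560 and chr14:118307307-118308417 near Dct and chr10:128560426-128561371 near Pmel. The background for this is 11.9% of all shared regions. The 4 that were higher each time, beside a background of 10.7%, were chr4:80783910-80784760 near Tyrp1, chr14:118237527-118240805 and chr14:118279242-118282126 near Dct, and chr10:128566506-128567921 near Pmel. The 4 measures come from the same fold and p-value and are not independent.

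**Figure D3:**
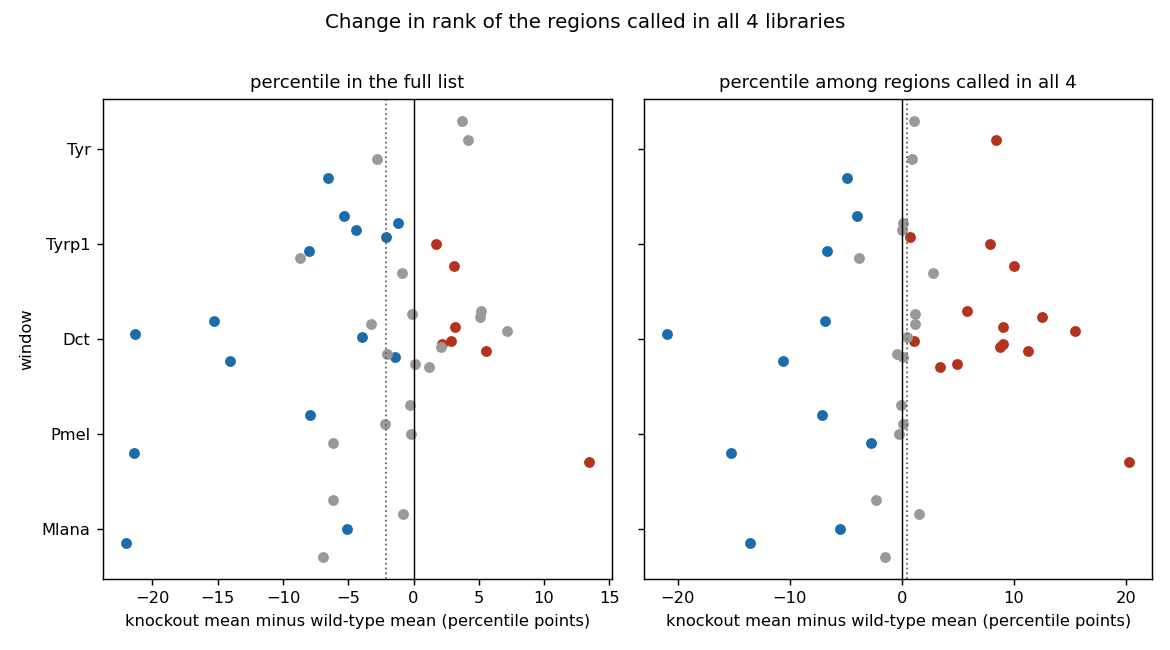
Change in rank of the 43 shared regions (knockout mean minus wild-type mean, percentile points) by window, in the full lists (left) and among shared regions (right). Blue points were lower and red points higher in both knockout than in both wild-type libraries, grey points overlapped, and the dotted lines are the medians of all shared regions, −2.12 and 0.41.

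**Figure D4:**
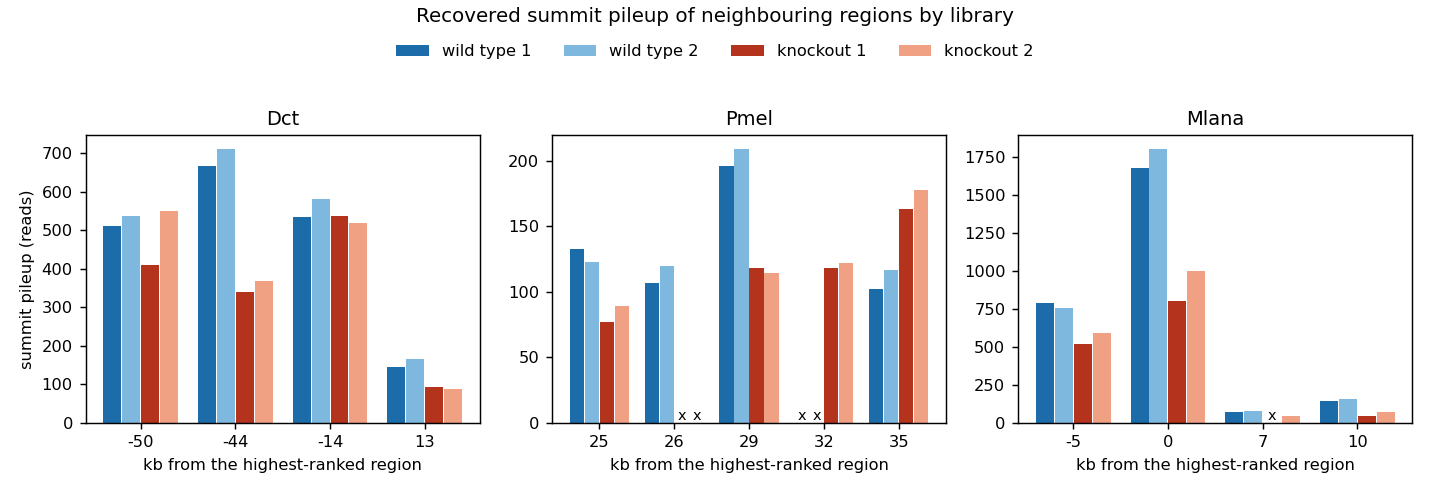
Summit pileup (reads stacked over the summit, solved from fold and p-value, not scaled for depth) of named regions in the Dct, Pmel and Mlana windows, 1 bar per library, by distance in kb from the highest-ranked region; x marks a library without a call. Knockout bars are lower at the Dct region with 667, 711, 340 and 367 reads, and higher at the right-most Pmel region with 102, 117, 163 and 178.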

How the data were processed

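The submitters' processing notes name MACS2 and GRCm39, and 1 narrowPeak list per library was deposited. Aligner, versions, duplicate filter, read shift and the span of the local background were not given in the sources used here. The authors deposited for each call the fold ratio of its summit over the local background, a −log10 p-value and a −log10 q-value, which reached down to 1.30, and a display score that was not used. Calls on the autosomes and X and Y were turned to 1-based positions, merged, and ranked by the −log10 p-value with Python 3.11.15, numpy 2.4.6 and pandas 2.3.3. In a region with several calls of a library the strongest was used. Pileup and background were solved from fold = (pileup + 1)/(background + 1) and the Poisson tail; at least 99.998% of pileups in each library came within 0.05 of a whole number. The steps were tested on simulated data. Read totals were not used, so no interval on depth is given.

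The members, lists and measures were chosen with earlier results of these data known. The rule for named regions took in each window the highest-ranked region, every region not called in all 4 libraries, and shared regions whose knockout ranks lay on 1 side of both wild-type ranks; the others were added to account for every region. Gene starts, the list of further pigmentation genes and the markers of other cell types were not used here, because the gene table belongs to another build. Alternatives were a −log10 q of at least 5, equal lists, a cover of at least 50%, summit windows of 501 bp, each library left out, 2 other scales and, added after the data were seen, relative pileup.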

Additional observations from a re-analysis of the deposited data

How the results depend on the processing

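No paired analysis was possible because the results are counts and ranks that come from no test, and the shared replicate numbers carry no stated link between genotypes. The number of regions called in all 4 libraries stayed within 1.5 times of 43 in every alternative. When a library is left out fewer libraries must agree, so the counts below for that setting are not like for like with the main ones. Lost regions numbered 2 with equal lists (background 4.63%), and 6 to 9 when a library was left out (9 without knockout replicate 2). Gained regions numbered 1 under the stricter q-value (background 0.852%) and 2 to 4 when a library was left out (4 without wild-type replicate 1). Shared regions lower in both knockout libraries numbered 9 with equal lists (background 24.1%), 3 by relative fold (background 18.3%), and 19 to 27 when a library was left out (27 without knockout replicate 2); those higher numbered 2 under the stricter q-value (background 6.51%), 16 with equal lists (background 36.8%), 33 by relative fold (background 51.9%), 15 by the percentile among shared regions (background 32.2%), 14 by relative pileup (background 44.6%), and 7 to 21 when a library was left out (14 without wild-type replicate 2 and 21 without knockout replicate 1).

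The change at the highest-ranked region of the Tyr window was −4.28 with equal lists. Under the stricter q-value that of the Dct window was −2.09. The sign turned with equal lists for Tyrp1 (0.0849) and Dct (0.0589), and by the percentile among shared regions for the same windows (0.0841 and 0.0523). It turned by relative fold for all 5, at 0.0444 (Tyr), 0.30 (Tyrp1), 0.28 (Dct), 0.45 (Pmel) and 0.22 (Mlana) on the log2 scale, and by relative pileup for Dct (0.0628) and Pmel (0.0163). The median changes of all shared regions were themselves above 0, at 0.13 by relative fold, 0.096 by relative pileup and 0.41 by the percentile among shared regions. Below these medians lay Tyr by relative fold, Dct and Pmel by relative pileup, and Tyrp1 and Dct by that percentile. A turned sign there is not a gain beside the typical shared region. Leaving out a library gave −8.59 to −4.54 for Tyr, −1.85 to −0.59 for Tyrp1, −1.91 to −0.93 for Dct, −0.73 to 0.14 for Pmel (0.14 without knockout replicate 1) and −6.04 to −4.22 for Mlana. The cause of these shifts was not tested. Weak calls limit the lost and gained counts, since a site just under the threshold of a library is absent from its list.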
